A study of Homo sapiens with 18 samples.

Results

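The nuclear receptor superfamily was followed through 18 libraries of HepG2 cells, a human liver cancer line, as the 44 genes of the family other than NR5A2 (LRH-1) and NR0B2 (SHP) that were looked up by symbol. All 44 were found among the 35238 genes of the count table. The cells, kept in medium with 10% charcoal-stripped serum, received a vehicle, either DMSO or ethanol at 0.1%, or a compound of a study of LRH-1. Small molecules labelled 6N, 10CA or 6N-10CA were used at 10 µM and the phospholipid DLPC (dilauroylphosphatidylcholine) at 100 µM. Each of the 6 groups had 3 libraries, all from the same line, with total counts of 28135967 to 34992442. The small molecules were set against DMSO and DLPC against ethanol, which rests on knowledge of the study because the labels do not name the vehicle of each compound. The length of treatment is not given in the sources used here. Nothing in the labels says that replicates were separate cultures, so p-values measure only how far these samples scatter, and that scatter may be technical.

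Nuclear receptors are transcription factors that carry a zinc-finger DNA-binding domain and, in most cases, a pocket for a small lipophilic ligand such as a steroid, a bile acid, an oxysterol or a fatty acid. Many bind DNA as pairs with a retinoid X receptor (RXR) at repeats of the hexamer AGGTCA, while the NR5A receptors bind as monomers at an extended hexamer. Ligand binding exchanges corepressors for coactivators, so the activity of a receptor can change with no change in its mRNA. In liver the family governs bile acid, cholesterol, fatty acid, glucose and drug metabolism. Charcoal stripping lowers steroids, thyroid hormone and other lipophilic small molecules in serum.

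Sequences upstream of a RefSeq start are shown for 3 members. RXRA was chosen as the member called with a ligand. NR1H4 was chosen because it moved in the same comparison once replicate numbers were taken into account. NR5A1 was chosen as the close relative of the intended target. The sequences are on GRCh38.p14, 5′ to 3′ up to the annotated RefSeq start, with matches to the searched motifs in capitals. For NR5A1, 31 bases next to the start were left out because a GENCODE transcript begins within them. In GENCODE, NR1H4 begins at 100473708 on chromosome 12 and RXRA at 134317098 on chromosome 9, both on the plus strand. The printed NR1H4 and RXRA windows therefore lie inside these genes, before an internal start. The bases before the GENCODE start of NR1H4 were not searched.
RXRA promoter, chr9:134326205-134326454, plus strand: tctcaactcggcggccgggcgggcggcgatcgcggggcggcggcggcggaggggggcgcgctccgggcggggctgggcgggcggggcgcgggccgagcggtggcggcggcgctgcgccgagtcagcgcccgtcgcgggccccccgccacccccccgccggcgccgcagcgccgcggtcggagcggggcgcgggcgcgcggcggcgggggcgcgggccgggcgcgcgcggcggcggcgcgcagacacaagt
NR1H4 promoter, chr12:100503110-100503359, plus strand: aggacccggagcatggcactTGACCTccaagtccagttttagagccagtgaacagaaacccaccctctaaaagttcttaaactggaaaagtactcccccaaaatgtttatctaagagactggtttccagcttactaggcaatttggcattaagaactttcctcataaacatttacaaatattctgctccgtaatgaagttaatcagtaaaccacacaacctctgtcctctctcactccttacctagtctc
NR5A1 promoter, chr9:124507431-124507649, minus strand: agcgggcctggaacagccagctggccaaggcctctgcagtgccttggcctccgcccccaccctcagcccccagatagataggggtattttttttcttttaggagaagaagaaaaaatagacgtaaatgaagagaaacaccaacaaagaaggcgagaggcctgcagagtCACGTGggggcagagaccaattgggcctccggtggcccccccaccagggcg

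The motifs AGGTCA, CAAGGNCA (the NR5A site), CACGTG (the E-box) and TTANGTAA (the D-box) were searched on both strands in the 250 bases before each start. RefSeq windows were found for 40 of the 44 members, with 94 starts in all, since many receptors have several. AGGTCA was found in 14 of these 94 windows and in 12.1% of all 35116 windows. The NR5A site was found in 5 windows (4.51% of all windows), the E-box in 6 (6.34%) and the D-box in 2 (1.98%). The NR1H4 window held AGGTCA on the opposite strand, read as TGACCT, beginning 230 bases before its internal start. The NR5A1 window held an E-box 82 bases before the start. RXRA has 2 windows, the first of which is printed, and neither held any of these motifs. A match is a stretch of letters only.

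Of the 44 receptors, 31 were expressed in HepG2 cells, taken as a mean over the 18 libraries of at least 1 CPM (counts-per-million of the scaled library total), and 25 reached 10 CPM. RXRG, ESR2 and ESRRB were weak, at means of 0.405, 0.263 and 0.201 CPM. The other 10 lay near the floor and were not tested: RARB, RORB, NR2E1, NR2E3, ESR1, ESRRG, PGR, NR4A2, NR4A3 and NR0B1. For PGR, the progesterone receptor, no count was found in any library, and 3 counts correspond to 0.0857 to 0.107 CPM depending on the library. That floor covers counting error only. The 34 genes that passed the filter on low counts are the members tested below.

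Levels of different genes are compared per length, as TPM (transcripts-per-million) computed from CPM and the merged exon length in GENCODE release 29. NR2F6 (EAR2), an orphan of the COUP-TF group that mostly represses transcription, was highest at a mean of 399 TPM. HNF4A, a master regulator of hepatocyte genes, followed at 100.4 TPM, and ESRRA, an orphan that drives mitochondrial genes, at 69.5 TPM. These 3 receptors held 57.6% of the summed TPM of all 44, and the ranges of their levels over the 18 libraries did not overlap with each other. They also led the order when the longest transcript replaced the merged exons. Below ESRRA came NR5A1 at 51.2 TPM, with no overlap between these neighbours either, and then NR1H4 at 45.9 and NR1H2 at 38.5 TPM. From NR5A1 down the ranges of neighbours overlapped, with the exception of RORA (2.6 TPM) and RARG (0.87 TPM), so that most ranks further down are not separated. In all, 26 of the 30 pairs of neighbours among the expressed receptors overlapped. The order below ESRRA also depended on the length used. With the longest transcript NR1H2 came next at 44.2 TPM, then RXRA at 42.2, NR1H4 at 42.1 and NR5A1 at 41.1 TPM.

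**Figure D1:**
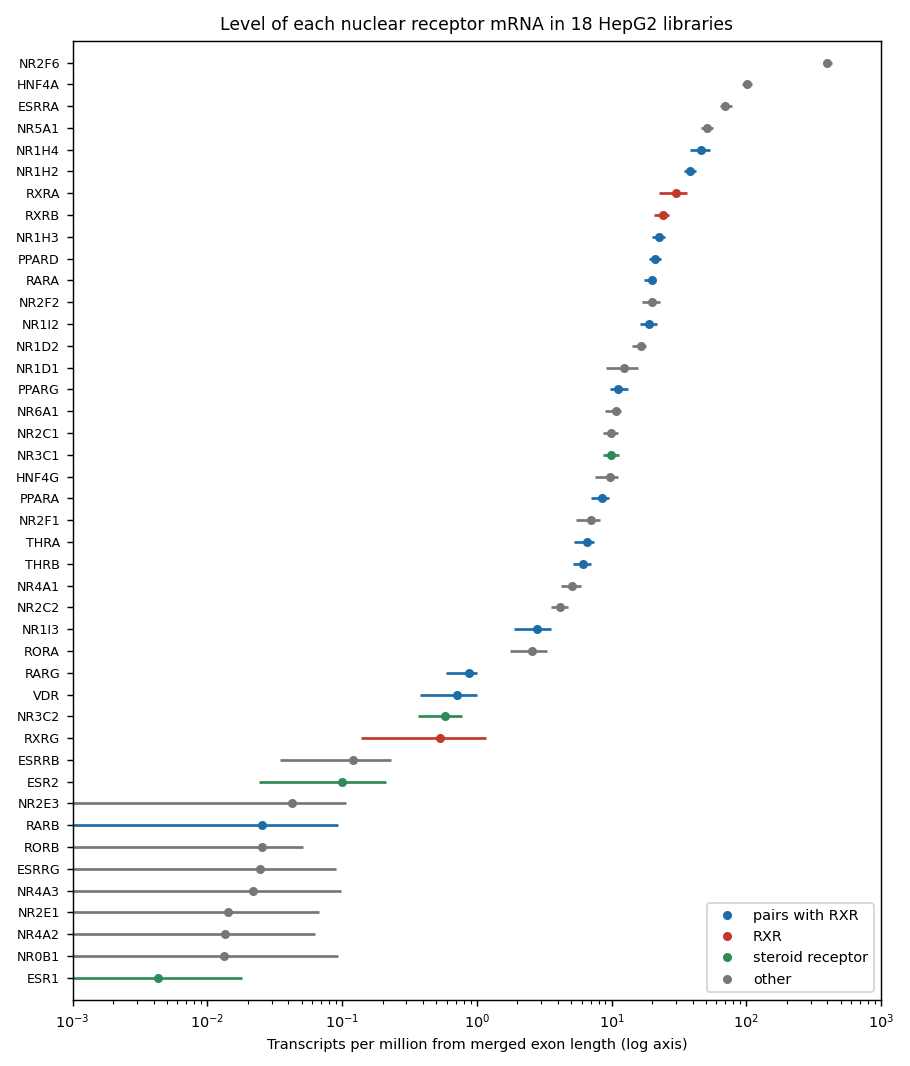
Mean level of each member in TPM from merged exon length (points) with the lowest and highest of the 18 libraries (lines) on a log axis, coloured by pairing class. NR2F6, HNF4A and ESRRA stand at the top at 399, 100.4 and 69.5 TPM, and lines that reach the left edge have a lowest value of 0 or below the axis. PGR, with no count, is not drawn.

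Of the 14 receptors classed here as pairing with RXR, 13 were expressed, the exception being RARB. NR1H4 (FXR), the bile acid receptor, stood at 45.9 TPM. The oxysterol receptors NR1H2 (LXR beta) and NR1H3 (LXR alpha) stood at 38.5 and 22.5 TPM. PPARD was at 21.0, PPARG at 11.2 and PPARA at 8.5 TPM. Among the xenobiotic sensors, NR1I2 (PXR) reached 18.8 TPM and NR1I3 (CAR) 2.8 TPM. The retinoic acid receptor RARA reached 19.9 and RARG 0.87 TPM. The thyroid hormone receptors THRA and THRB stood at 6.6 and 6.1 TPM (12.9 and 18.8 CPM), and VDR, the vitamin D receptor, at 0.71 TPM. Of the 3 RXR genes, RXRA stood at 30.1 TPM and RXRB at 23.9 TPM, while RXRG was weak.

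Among the 5 steroid receptors, NR3C1 (the glucocorticoid receptor) at 25.4 CPM and NR3C2 (the mineralocorticoid receptor) at 1.09 CPM were expressed, whereas ESR1 had 9 counts over all 18 libraries. The remaining 22 orphans and similar receptors had 14 expressed members. They included NR2F2 (COUP-TFII) at 19.9 TPM and NR2F1 (COUP-TFI) at 7.0 TPM, both repressors that occupy AGGTCA repeats. NR1D2 and NR1D1 (REV-ERB beta and alpha), the haem-binding repressors of the clock, stood at 16.7 and 12.4 TPM. RORA, the activator that competes with them for the same sites, stood at 2.6 TPM. HNF4G, NR2C1, NR2C2, NR6A1 and NR4A1 were expressed at means of 10.5 to 21.5 CPM.

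NR5A1 (SF-1), which shares its DNA site with LRH-1 and is best known from adrenal and gonad, was expressed in every library, at 43.2 to 54.7 CPM. NR5A2, the gene of LRH-1, stood at 4.01 CPM, so NR5A1 was 27.1 times as high per length (20.1 times with the longest transcript). NR5A1 was not called in any of the 8 comparisons, where its log2 fold changes spanned -0.10 to 0.03. With 6N the 95% interval ran from -0.19 to 0.10 and with 10CA from -0.24 to 0.05. With 6N-10CA it ran from -0.22 to 0.08, and with DLPC from -0.14 to 0.15.

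The hepatocyte identity of the line was checked on 10 markers, all above 1 CPM, with a summed level of 56202 to 74762 CPM. Of 5 cholangiocyte markers 3 were above 1 CPM, of 6 stromal markers 1, of 5 endothelial markers 3 and of 6 blood markers 3. Their summed levels were 1007 to 1173 CPM for cholangiocyte and 335 to 512 CPM for blood markers. Stromal markers summed to 6.2 to 11.2 CPM and endothelial markers to 29.9 to 46.6 CPM. The levels are averages over cells, so fewer cells of a kind and less RNA per cell cannot be told apart. The counting's use of strand is not given in the sources used here, and exons of some members overlap genes on the opposite strand. THRA and NR1D1 share 263 exon bases on chromosome 17, and NR1I3 shares 661 bases, 20% of its exons, with TOMM40L. RARA shares 556 bases (11.8% of its exons) with RARA-AS1, and NR2C2 shares 1197 (10.1%) with MRPS25. On the same strand NR2F6 shares 221 bases (8.26%) with AC010646.1, and NR1I2 shares 219 (4.07%) with AC069444.2. How reads on such shared bases were assigned cannot be told.

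In the 4 comparisons with a vehicle, RXRA was the only receptor called. A gene was called at a Benjamini-Hochberg adjusted p under 0.05 over all 14797 genes tested with edgeR's quasi-likelihood test. RXRA (GRCh38 chromosome 9, 134317098 to 134440585) is the common partner of the heterodimeric receptors. It stood at 112, 113 and 109 CPM in the 3 DLPC libraries and at 70.7, 73.6 and 88.0 CPM in the 3 ethanol libraries. The DMSO libraries had 105, 96.5 and 88.1 CPM, the 6N libraries 94.7, 108 and 99.9 CPM, the 10CA libraries 102, 92.0 and 86.0 CPM, and the 6N-10CA libraries 84.5, 77.3 and 92.6 CPM. The DLPC libraries were the highest of all 18. The ethanol libraries were lower than the DMSO libraries without overlap, and 8.25% of all genes were without overlap between these vehicles.

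Against ethanol, RXRA rose with DLPC by a log2 fold change of 0.53 (SE 0.09, 95% interval 0.35 to 0.71, adjusted p = 0.00363 by edgeR), which is 1.44-fold. It was the 1 member called of 34 in that comparison, where 1.04% of all genes were called. Ethanol itself lay below DMSO by a log2 fold change of -0.32 (95% interval -0.50 to -0.14, edgeR adjusted p = 0.65). Set against DMSO in place of ethanol, the DLPC change in RXRA was 0.21 and was not called (edgeR adjusted p = 0.215), and against both vehicles averaged it was 0.37 (edgeR adjusted p = 0.00893). Leaving out any 1 of the 6 libraries gave 0.46 to 0.63, called each time, and over all alternatives the adjusted p ran from 2.44e-08 to 0.215. RXRA was also the member called in the test of any difference among the 6 groups (edgeR adjusted p = 0.00697), which called 5.23% of all genes.

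**Figure D2:**
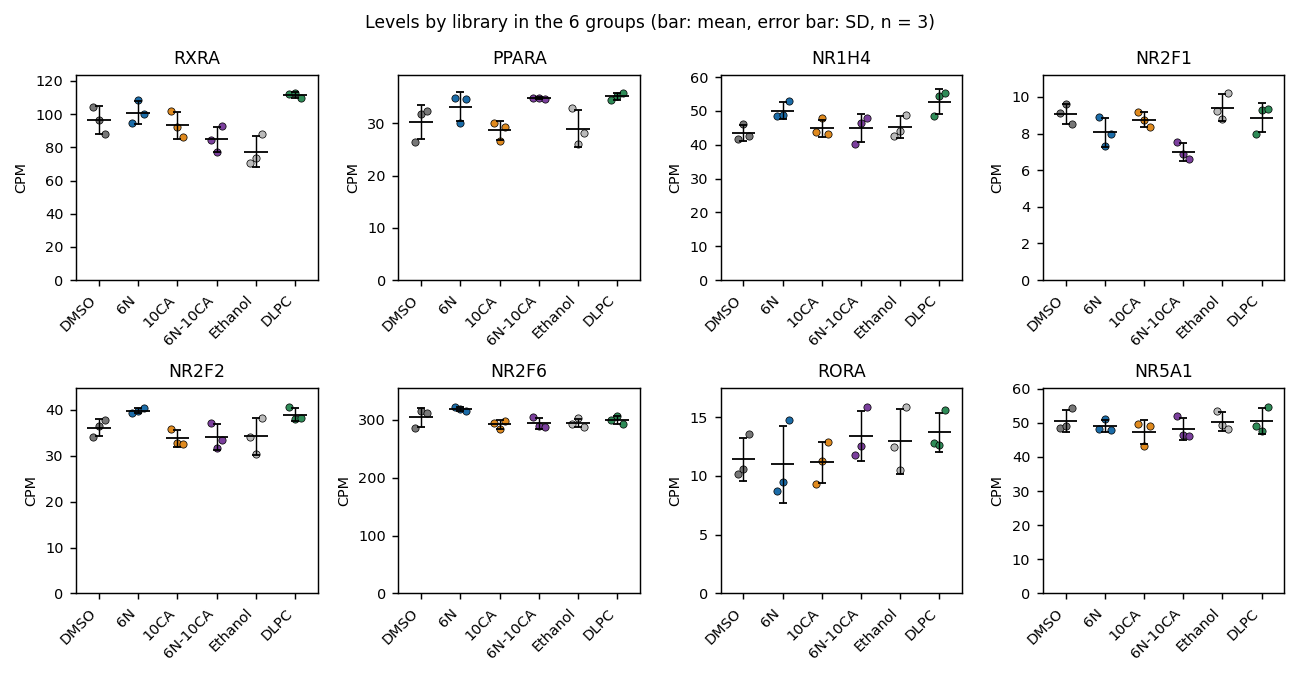
Level in CPM of RXRA, PPARA, NR1H4, NR2F1, NR2F2, NR2F6, RORA and NR5A1 in each library of the 6 groups, with the mean (bar) and SD (error bar, n = 3). The 3 DLPC libraries of RXRA lie at 109 to 113 CPM, above all 15 others, and the ethanol libraries at 70.7 to 88.0 CPM.

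Replicate numbers in the titles paired the libraries, so a fit with the replicate number as a block stands beside the results it changes. With that block, DLPC against ethanol called 3 members, in a comparison where 6.74% of all genes were then called. PPARA, the fatty acid receptor that switches on fat oxidation, stood at 34.4, 35.3 and 35.7 CPM with DLPC and at 32.9, 26.04 and 28.1 CPM with ethanol. These libraries did not overlap, and the log2 difference was 0.28 (SE 0.09, edgeR adjusted p = 0.145, with the block 0.0363). NR1H4 stood at 48.6, 54.5 and 55.2 CPM with DLPC and at 42.7, 43.99 and 48.9 CPM with ethanol, so the lowest of the former lay just under the highest of the latter. The difference for NR1H4 was 0.22 (SE 0.07, edgeR adjusted p = 0.172, with the block 0.0173). Both belong to the 13 tested receptors classed here as pairing with RXR, and no other of these 13 was called in that comparison with the block.

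Over the 34 tested members, 26 log2 fold changes with DLPC were positive and 8 negative, with a median of 0.08 beside 0.0011 over all genes. The 3 DLPC libraries stood clear of the 3 ethanol libraries in 5 members, and the same held for 19.2% of all genes tested. Of the 31 expressed receptors, 26 had a 95% interval within 0.5 of no change on the log2 scale.

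No member was called with 6N, 10CA or 6N-10CA against DMSO. In these comparisons 1.14%, 0% and 0.264% of all genes were called. With 10CA, edgeR called no gene at all, although 1033 genes had an unadjusted p under 0.05, DESeq2 called 13 and limma-voom called 0. The number of expressed receptors with an interval inside 0.5 of no change was 29 of 31 for 6N, 27 for 10CA and 24 for 6N-10CA. For those genes a change of 1.5-fold or more lies outside the interval, while smaller changes are not separated from none. With 6N the smallest p-values belonged to NR1H4 (log2 difference 0.20, interval 0.05 to 0.36), NR1I2 (-0.18, interval -0.34 to -0.02) and NR6A1 (0.14, interval -0.02 to 0.30). NR6A1 is an orphan repressor of germ cells. With 10CA they were those of NR1D2 (0.17, interval 0.01 to 0.32), NR1I3 (-0.41, interval -0.79 to -0.03) and ESRRA (-0.10, interval -0.24 to 0.03).

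With 6N-10CA the smallest p was that of NR2F1 (GRCh38 chromosome 5, 93583224 to 93594615), at 7.51, 6.89 and 6.59 CPM beside 9.12, 9.61 and 8.50 CPM with DMSO. All 3 libraries lay below all 3 of DMSO, and 14.8% of all genes tested were without overlap in that comparison. The log2 difference was -0.38 (SE 0.10, interval -0.58 to -0.17, edgeR adjusted p = 0.125). With the replicate block NR2F1 fell (edgeR adjusted p = 0.0346), the 1 member called where 3.8% of all genes were. The NR2F1 level was 8.88, 7.31 and 7.998 CPM with 6N and 9.18, 8.75 and 8.35 CPM with 10CA. It was 9.25, 8.79 and 10.2 CPM with ethanol and 7.98, 9.30 and 9.33 CPM with DLPC. PPARA (0.21, interval 0.03 to 0.39) and RXRA (-0.19, interval -0.36 to -0.01) were next. With 10CA the block called 0 members and 0.216% of all genes.

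**Figure D3:**
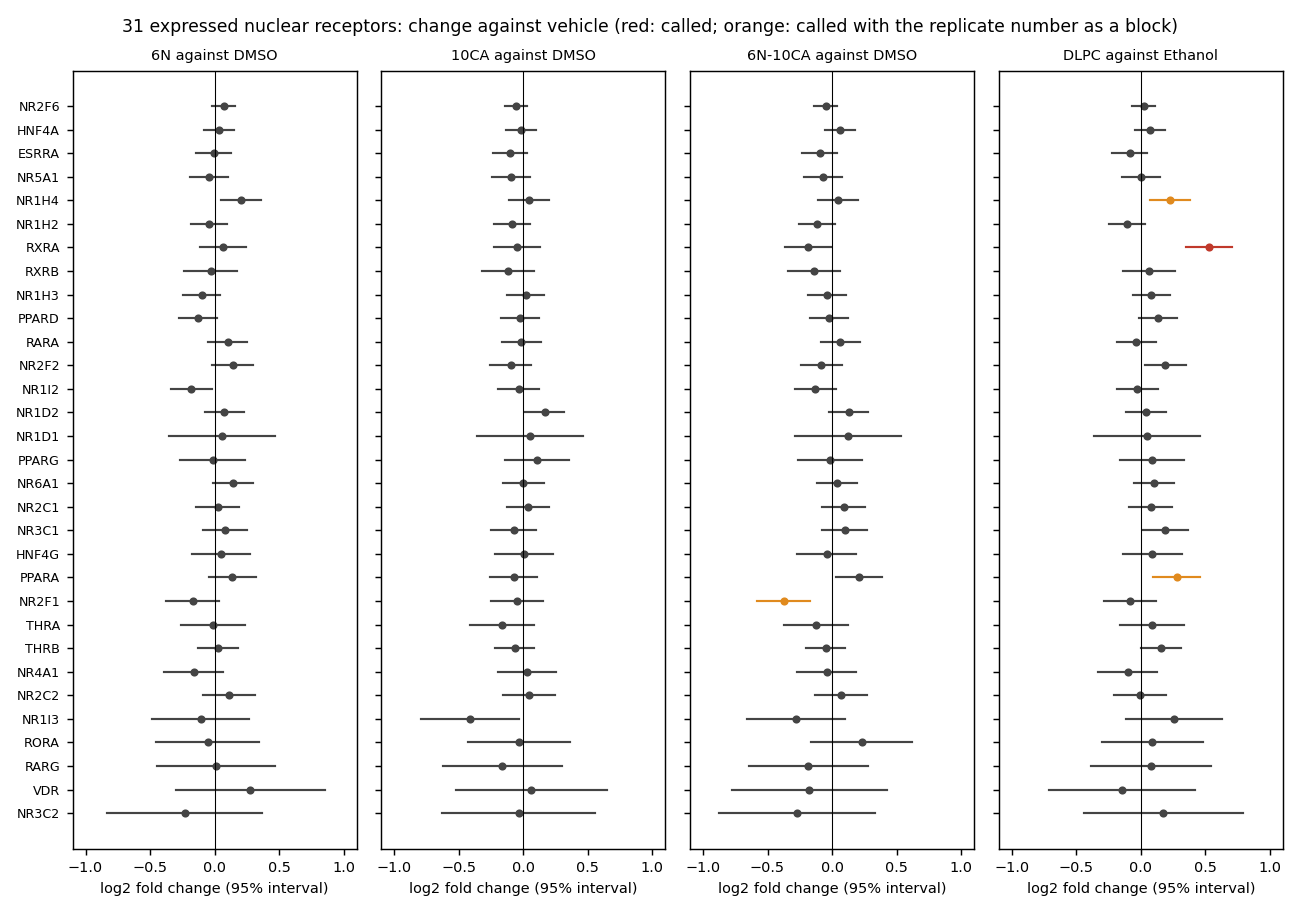
Log2 fold change (points) with its 95% interval (lines) for the 31 expressed receptors in the 4 comparisons with a vehicle, in order of level. RXRA is the only red point, with DLPC at 0.53, and most other intervals cross 0.

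Between the small molecules, all at 10 µM, the 3 pairs were compared directly and no member was called. The share of all genes called was 1.71% for 10CA against 6N, 1.64% for 6N-10CA against 6N and 0.23% for 6N-10CA against 10CA. With the replicate block these shares were 7.66%, 8.32% and 2.36%, and 2, 2 and 0 members were called. NR2F2 stood at 39.3, 39.7 and 40.4 CPM with 6N, at 35.9, 32.7 and 32.6 CPM with 10CA and at 37.2, 31.6 and 33.5 CPM with 6N-10CA. All 6 libraries of the other compounds lay below the 3 of 6N. Libraries were without overlap in 16.7% of all genes tested for 10CA against 6N and in 17.7% for 6N-10CA against 6N. The NR2F2 difference was -0.24 for 10CA (SE 0.08, edgeR adjusted p = 0.131, with the block 0.0306) and -0.23 for 6N-10CA (SE 0.08, edgeR adjusted p = 0.158, with the block 0.0390). Its level was 34.1, 36.5 and 37.9 CPM with DMSO, 34.0, 30.3 and 38.3 CPM with ethanol and 40.7, 37.9 and 38.3 CPM with DLPC.

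NR2F6 stood at 323, 319 and 316 CPM with 6N and at 294, 284 and 299 CPM with 10CA. These too were without overlap, as in 16.7% of all genes. The difference for NR2F6 was -0.13 (SE 0.04, edgeR adjusted p = 0.147, with the block 0.0409). It stood at 305, 289.6 and 288 CPM with 6N-10CA, 286, 315 and 312 CPM with DMSO, 293, 302 and 288 CPM with ethanol and 299, 306 and 292 CPM with DLPC. RORA was the other member called with the block between 6N-10CA and 6N, at 11.8, 12.6 and 15.8 CPM beside 8.72, 9.50 and 14.7 CPM. These libraries overlapped, and the RORA difference was 0.29 without the block (SE 0.19, edgeR adjusted p = 0.521) and 0.30 with it (edgeR adjusted p = 0.0458). Its levels were 10.1, 10.6 and 13.5 CPM with DMSO, 9.33, 11.3 and 12.9 CPM with 10CA, 12.4, 10.5 and 15.9 CPM with ethanol and 12.8, 12.7 and 15.6 CPM with DLPC. In 6N-10CA against 10CA the smallest p-values belonged to NR2F1 (-0.33, interval -0.53 to -0.12), PPARA (0.28, interval 0.10 to 0.46) and NR3C1 (0.17, interval -0.0007 to 0.34).

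The levels of the named partners in the remaining groups complete this picture. PPARA stood at 26.4, 31.8 and 32.3 CPM with DMSO, 34.9, 30.0 and 34.6 CPM with 6N, 30.1, 26.6 and 29.2 CPM with 10CA and 34.9, 34.9 and 34.6 CPM with 6N-10CA. The 6N-10CA libraries were the most alike of any group for this gene. They lay above all DMSO libraries, in a comparison where 14.8% of all genes were without overlap. NR1H4 stood at 41.7, 46.3 and 42.6 CPM with DMSO, 48.5, 48.7 and 53.0 CPM with 6N, 43.7, 47.9 and 43.2 CPM with 10CA and 40.2, 46.4 and 48.1 CPM with 6N-10CA. The 6N libraries lay above the DMSO libraries for NR1H4, in a comparison where 13.6% of all genes were without overlap. Comparisons that share the DMSO or the 6N libraries are not independent of each other.

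Between the vehicles themselves 0 of 34 members were called, as were 0% of all genes, with 479 genes at an unadjusted p under 0.05, 13 called by DESeq2 and 0 by limma-voom. With the replicate block 0.122% of all genes and no member were called. RXRA had the smallest p, followed by VDR (0.51, interval -0.07 to 1.08) and NR1D2 (0.10, interval -0.05 to 0.26).

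Several receptors differed between replicate numbers, some of them besides differing between treatments. In the fit with both terms, edgeR called 12 of 34 members for the replicate number and 28.2% of all genes, so the receptors' share lay near that of all genes. RORA and NR1D1, which act on the same DNA sites with opposite effect, were high in different libraries. RORA averaged 14.8 CPM in the 6 libraries numbered 3, beside 10.9 and 11.2 CPM in those numbered 1 and 2 (edgeR adjusted p = 4.07e-05). In 6 of 6 groups the library numbered 3 lay above its group mean for RORA. NR1D1 averaged 11.4 CPM in the libraries numbered 1, 9.65 CPM in those numbered 2 and 8.07 CPM in those numbered 3 (edgeR adjusted p = 0.000403). The library numbered 1 lay above its group mean for NR1D1 in 6 of 6 groups and the library numbered 3 in 0 of 6. HNF4A averaged 197 CPM in libraries numbered 1 and 216 CPM in those numbered 3 (edgeR adjusted p = 0.000435), and its paralogue HNF4G 12.1 and 14.1 CPM. The others called were PPARG, NR4A1, RXRB, NR1H4, NR2C2, NR1H2, THRA and RXRG. What the numbers stand for is not in the labels.

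**Figure D4:**
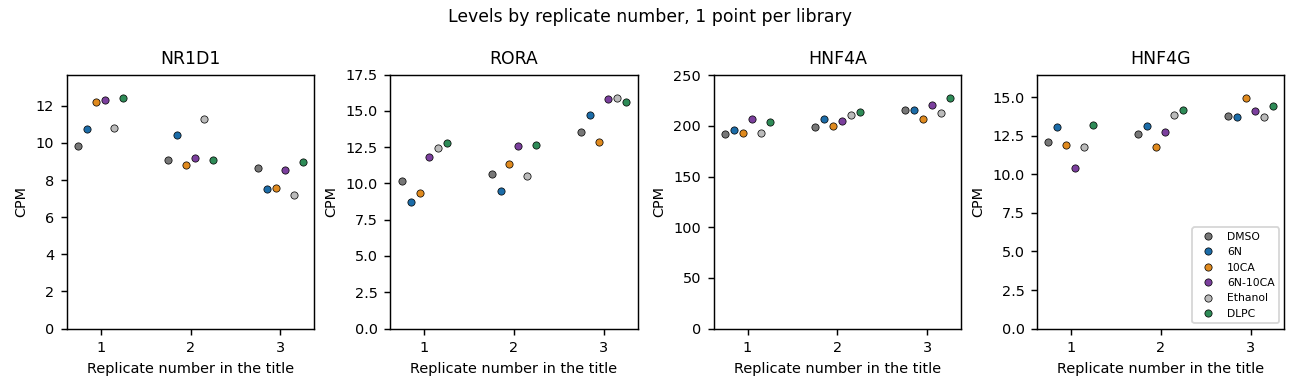
Level in CPM of NR1D1, RORA, HNF4A and HNF4G by the replicate number in the title, with 1 point per library coloured by group. The libraries numbered 3 are high for RORA (mean 14.8 CPM) and low for NR1D1 (mean 8.07 CPM) in all 6 groups.

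Target genes of the receptors moved in places where, without the block, the receptors' own mRNAs were not called. The lists here and below were chosen with earlier results of these data known. Their counts and medians therefore describe the listed genes and are no independent test of a receptor's activity. The shares of all genes called without the block are those given above for each comparison. LXR targets are genes of sterol efflux and fatty acid synthesis. With 6N, where 1.14% of all genes were called, 4 of the 9 tested fell and none rose. The median log2 fold change of the list was -0.23 beside -0.0006 over all genes. The 4 were SREBF1 (-1.04, edgeR adjusted p = 2.98e-08), the sterol and lipid regulator, SCD (-0.81), the fatty acid desaturase, MYLIP (-1.03), which degrades the LDL receptor, and LPCAT3 (-0.39), which remodels phospholipids. SREBF1 and SCD also answer to other regulators. NR1H2 and NR1H3 differed by -0.04 and -0.10 with 6N and were not called. Against 6N the same 4 genes were higher with 10CA and with 6N-10CA, both comparisons sharing the 6N libraries, and PLTP (0.26) rose as well with 6N-10CA. With DLPC, 1 of 9 rose (SCD, 0.32), and with 10CA or 6N-10CA against DMSO 0 of 9 were called.

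Among 8 tested FXR targets, 6N raised SLC51A (0.68), a bile acid exporter subunit, and KNG1 (0.48), the kininogen gene, and lowered UGT2B4 (-0.44), a bile acid glucuronosyltransferase. With 6N-10CA, SLC51A (1.11, edgeR adjusted p = 3.48e-05) and KNG1 (0.75) rose and none fell, and both were also higher than with 10CA. The NR1H4 mRNA differed by 0.20 with 6N (interval 0.05 to 0.36) and was not called. All 3 libraries lay above DMSO, where 13.6% of all genes were without overlap. With 6N-10CA the NR1H4 mRNA differed by 0.04 (interval -0.11 to 0.20). The medians of the list were 0.01 with 6N and 0.13 with 6N-10CA, and with 10CA or DLPC 0 of 8 were called. For 10CA against 6N, 1 rose (UGT2B4) and 3 fell (KNG1, SLC51A and FETUB), a count of 2 to 4 called when 1 library was left out, being 2 without 10CA replicate 1, 10CA replicate 2, 6N replicate 1 or 6N replicate 2. In 6N-10CA against 6N no FXR target was called.

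The VDR target CYP24A1, which inactivates vitamin D and averaged 1.197 CPM, rose with 6N by 1.97 (SE 0.35, edgeR adjusted p = 0.00386). It was 1 of the 3 VDR targets tested. CYP24A1 also differed from DMSO by 0.84 with 10CA and 1.04 with 6N-10CA, and from ethanol by 0.48 with DLPC, none of them called. The list median was 0.41 with 6N and 0.63 for ethanol against DMSO, where 0 VDR targets were called. The VDR mRNA itself differed by 0.28 (interval -0.30 to 0.86). Of 8 PXR and CAR targets, drug-metabolism genes, CYP3A7 rose with 6N (0.84) and none fell, with a list median of 0.40. NR1I2 and NR1I3 differed by -0.18 and -0.11 with 6N. Against 6N, CYP3A7 (-0.89) and CYP3A5 (-0.54) were lower with 10CA, where the count was 1 without 10CA replicate 2, 10CA replicate 3 or 6N replicate 2. Against 10CA, CYP3A7 (0.62) and CYP3A5 (0.57) were higher and ABCB1 (-0.31), a drug efflux pump, lower with 6N-10CA, but none of the 3 was called when any 1 of the 6 libraries was left out.

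**Figure D5:**
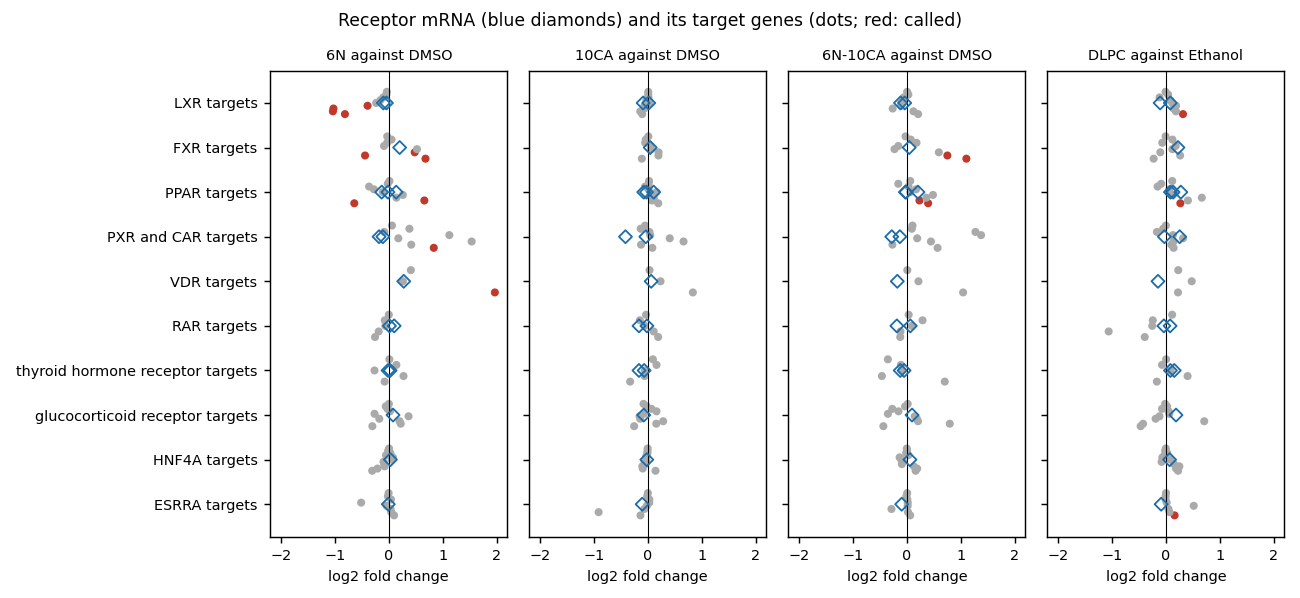
Log2 fold change against vehicle of the target genes of 10 receptor lists (dots, red where called) and of the receptors' own mRNAs (blue diamonds). LXR targets reach -1.04 with 6N while NR1H2 and NR1H3 stay at -0.04 and -0.10, and CYP24A1 reaches 1.97 beside VDR at 0.28.

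Of 9 PPAR targets, genes of fat oxidation and lipid storage, CPT1A (0.66) rose and FABP1 (-0.64) fell with 6N, and PLIN2 (0.40) and ACADM (0.23) rose with 6N-10CA. None was called with 10CA. The count of 2 with 6N was 0 without DMSO replicate 1, DMSO replicate 3 or 6N replicate 2 and 1 without 6N replicate 1 or 6N replicate 3. The count of 2 with 6N-10CA was 1 without 6N-10CA replicate 2 and 0 without any other library. Against 6N, FABP1 was higher with 10CA (0.59) and with 6N-10CA (0.81), as was PLIN2 with 6N-10CA (0.38). The 10CA count of 1 was 0 without 6N replicate 2, 10CA replicate 1 or 10CA replicate 3, and 2 without 10CA replicate 2. The 6N-10CA count of 2 was 1 without 6N replicate 2, 6N-10CA replicate 1 or 6N-10CA replicate 3.

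Targets of HNF4A (11 tested), the retinoic acid receptors (5), the thyroid hormone receptors (5) and the glucocorticoid receptor (10) had 0 called in each of the 8 comparisons without the block. Of 9 ESRRA targets, 0 were called with any of the small molecules against DMSO. Of 36 coregulators, CARM1 (0.86, edgeR adjusted p = 0.0244), a coactivator methyltransferase, rose with DLPC and the count was 0 without any library other than Ethanol replicate 3, where it was 1. TRIM24 (0.21) rose in 6N-10CA against 6N, which was not called without 6N replicate 1, 6N replicate 2, 6N-10CA replicate 2 or 6N-10CA replicate 3, and 2 coregulators were called without 6N-10CA replicate 1.

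Of 14 tested clock genes other than the receptors NR1D1 and RORA, HLF (0.20) and NFIL3 (0.23), both regulators at D-boxes, rose with DLPC. That count of 2 was 1 without Ethanol replicate 1, Ethanol replicate 3 or DLPC replicate 2 and 0 without the other 3 libraries. BHLHE40 (0.42 and 0.46), a repressor at E-boxes, was higher with 10CA and with 6N-10CA than with 6N. In both comparisons 1 clock gene was called without 6N replicate 3, and in the former also without 10CA replicate 2. The count was 0 without any other library. None of the 14 was called with a small molecule against DMSO, and NR1D1 differed from vehicle by 0.05 with DLPC (interval -0.36 to 0.46).

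The replicate block added calls in most of the lists, as it did over all genes. With DLPC, where it called 6.74% of all genes, 6 of the 36 coregulators rose and none fell, among them NCOA3 (0.35), a p160 coactivator, NRIP1 (0.22), a corepressor, and PPARGC1A (0.34), the coactivator of PPARs and ESRRA. In the same comparison 2 of 9 LXR targets (SCD and LPCAT3) and 3 of 14 clock genes (HLF, NFIL3 and BHLHE40) rose, as did 3 of 11 HNF4A targets (APOB, APOA2 and APOC3) and 1 of 8 PXR and CAR targets (ALAS1). Of the glucocorticoid receptor targets, PCK1 (0.71), the gluconeogenic enzyme, rose with the block and SGK1 and MT2A fell. G6PC rose and FURIN fell among 5 thyroid hormone receptor targets, and TGM2 (-0.24) fell among 5 retinoic acid receptor targets.

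With 6N-10CA against DMSO, where the block called 3.8% of all genes, PCK1 (0.80) and MT2A rose and SGK1 fell. PLTP rose among LXR targets, APOC3 among HNF4A targets, BHLHE40 among clock genes and 3 of 8 FXR targets (SLC51A, KNG1 and SLC51B), while G6PC (-0.46) fell. Of the PPAR targets PLIN2, ACADM, CREB3L3 and FABP1 rose. CYP3A7, CYP3A5 and ALAS1 rose and ABCB1 fell among PXR and CAR targets, and the coregulator NCOA5 fell. With 10CA against DMSO, where 0.216% of all genes were called, PLIN2 (0.19) rose.

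In 10CA against 6N, at 7.66% of all genes, the block called 4 of 36 coregulators, with GPS2 lower and TRIM24, NCOA3 and NCOA7 higher. BHLHE40 and HLF, APOB and APOA2, and TGM2 were higher, and AGT, G6PC, MT2A and CYP24A1 were lower. In 6N-10CA against 6N, at 8.32%, SLC51A, SLC51B and KNG1 were higher, so that 3 of 8 FXR targets were called. TGM2, PCK1, ALAS1, APOB, APOA2 and APOC3 were also higher, and G6PC (-0.60), AGT, ABCB1, GPS2, PPRC1 and NCOA5 were lower. In 6N-10CA against 10CA, at 2.36%, PCK1 (0.73), MT2A, APOC3, ALAS1, PLTP, CREB3L3, PLIN2 and FABP1 were higher, and FKBP5 and UGT2B4 were lower. Several of these genes had an adjusted p above 0.4 without the block, such as PCK1 with 6N-10CA (edgeR adjusted p = 0.434, with the block 4.93e-05), APOC3 with DLPC (0.475, with the block 0.000711) and G6PC with DLPC (0.541, with the block 0.00507).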

How the data were processed

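RNA was measured in 18 HepG2 libraries. The deposited table holds raw counts (whole numbers) by gene symbol. GRCh38 and DESeq2 are named in the submitters' processing notes, while aligner, counter and annotation are not stated there. Members and lists were chosen with earlier results of these data known. Genes were kept with filterByExpr (a minimum count of 10, a total of 15), leaving 14797 genes with 99.96% of counts. A single fit of 1 mean per group used TMM scaling and edgeR 4.0.16's quasi-likelihood test in R 4.3.3, two-sided, with Benjamini-Hochberg adjustment over all genes. CPM uses TMM-scaled totals, and TPM uses merged exon lengths of GENCODE 29 (94.1% of tested genes). Groups came from the labels. Named members were those called, called with the replicate block, or with the 3 smallest p where none was called; of each list, its called genes, at most 4 per comparison; list genes called with the block were added after their values were seen. Some genes of the lists are not reported here. The fit was tested on simulated data. Alternatives were the replicate block, DESeq2 (1.42.0) and its size factors, limma-voom (limma 3.58.1), other filters, only the groups compared, the other vehicle or both, and leaving out each library.

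Replicate numbers come from the titles. Over 10686 genes above 5 CPM, deviations from the group mean correlated at over 0.1 in 43 of 45 pairs of libraries with the same number (median 0.31, beside -0.13 for different numbers). All 3 pairs exceeded 0.1 in 7 of the 8 comparisons, all but 6N against DMSO. Within each group no library was a copy of another, since replicates differed by more than sampling noise. Libraries of different groups were not compared in this way.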

Additional observations from a re-analysis of the deposited data

How the results depend on the processing

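RXRA with DLPC kept its direction in each of the alternatives run, and its call in all but that with DMSO as the vehicle (0.21). The replicate block called 3 members for DLPC against ethanol (6.74% of all genes) and 1 for 6N-10CA against DMSO (3.8%). It called 2 for 10CA against 6N (7.66%) and 2 for 6N-10CA against 6N (8.32%). It changed no other comparison's count among those whose libraries were paired. For 6N against DMSO the numbers do not pair the libraries by the rule (correlations 0.23, 0.087 and 0.14), and the block called 1 member, NR1H4 (0.20, edgeR adjusted p = 0.0457), and 3.72% of all genes in place of 1.14%. In the test of any difference among the 6 groups the block called 8 members and 21.3% of all genes. The 8 were RXRA, NR2F1, PPARA, NR1H4, THRB, NR2F2, NR1H2 and RORA. DESeq2 called 5 members and 10.9% of all genes, and no filter on low counts 3 members and 5.65%. Leaving out 1 library gave 1 to 2 members and 2.77% to 4.96% of all genes. PPARA was added without Ethanol replicate 1 and NR2F2 without Ethanol replicate 3. With the other vehicle the counts were 1 (RXRA) for 6N, beside 1.79% of all genes, and 0 for DLPC, beside 2.57%. With both vehicles averaged they were 1 (NR2F1) for 6N-10CA, beside 0.872%, and 2 (RXRA and NR1H4) for DLPC, beside 3.66%. DESeq2 called 1 (NR2F6) for 10CA against 6N, beside 3.35% of all genes. Without the filter RXRA was the 1 member called in 6N-10CA against 6N, beside 1.61% of all genes. It was also the 1 member called in ethanol against DMSO, beside 0.148%. The cause was not tested. All 127 values of single members under alternatives kept their direction, and 1164 of 1344 list counts stayed within 1.5 times. Counts of 0 that stayed 0 are among the 1164, so this share says little about lists with a call. With 1 library left out, the LXR target count with 6N stayed within 1.5 times in 6 of 6 fits. The clock gene count with DLPC and the PPAR target count with 6N-10CA against DMSO did so in 0 of 6. Over the alternatives the adjusted p ran from 0.0173 to 0.429 for NR1H4 and from 0.0363 to 0.438 for PPARA with DLPC, from 0.0325 to 0.385 for NR2F1 with 6N-10CA, from 0.0306 to 0.393 for NR2F2 and 0.0409 to 0.333 for NR2F6 in 10CA against 6N, and from 0.0390 to 0.356 for NR2F2 and 0.0458 to 0.849 for RORA in 6N-10CA against 6N. Low counts limit VDR, RARG, NR3C2 and the weak members, for which intervals such as -0.30 to 0.86 (VDR with 6N) are wide.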
